A study of Sus scrofa with 12 samples.

Results

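The genes described here mostly make, bind, break down or export the cyclic nucleotides cAMP and cGMP, or anchor the kinase that cAMP activates. They were taken by symbol from the annotation of the array: every probe set whose symbol starts with ADCY, GUCY, PRKG or AKAP, with PRKA apart from the AMP kinase genes PRKAA, PRKAB and PRKAG, or with PDE and a number, together with ABCC4. This gave 60 of 27558 probe sets and 55 of the 12361 genes named on the array, each gene being represented by its probe set with the highest mean. The 55 genes were 9 adenylyl cyclases, 2 genes of the peptide PACAP and its receptor that share the ADCY prefix, 3 guanylyl cyclase genes, 5 genes of cAMP-dependent protein kinase (PKA), 2 cGMP-dependent kinases, 13 anchoring proteins, 19 phosphodiesterases, the exporter ABCC4 and PDE12, which carries the name but acts on RNA ends and not on cyclic nucleotides. PRKACB and PDE5A, which are also known in the heart, were not analysed here.

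In heart muscle, adenylyl cyclases answer adrenergic and other receptors by making cAMP, which frees the catalytic subunit of PKA from its regulatory subunits. PKA then phosphorylates calcium channels, phospholamban and myofilament proteins, and so raises the force and the speed of contraction and relaxation. Nitric oxide acts on soluble guanylyl cyclase to make cGMP, whose kinase PRKG1 relaxes vascular smooth muscle. Phosphodiesterases break both messengers down, each family at its own place in the cell, anchoring proteins (AKAPs) hold PKA beside its substrates, and ABCC4 pumps cyclic nucleotides out of the cell.

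Left ventricular tissue came from female pigs aged 13 months. In the paced group (EXP), complete atrioventricular block had been made with an ablation catheter and a pacemaker had been set to VDD, a mode that senses the atrium and paces the ventricle; the controls (CTL) were sham-operated pigs of the same age. The labels state that the ventricular lead lay on the septum of the right ventricle and the atrial lead on the right atrial appendage in all pigs, that tissue was taken 6 months after surgery, and that 12 pigs were enrolled, 6 per treatment. Free wall and septum of the left ventricle, at the level of the papillary muscles, gave 3 arrays each for control and paced pigs, 12 arrays in all, and which array belongs to which pig is not given in the sources used here. Block and pacing came together, so the effect of either cannot be told apart. Since arrays are not tied to pigs, p-values speak only for the spread from array to array.

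Values are RMA signals on the log2 scale, in which 1 unit is a doubling. The array medians lay between 4.305 and 4.45. The second free wall array of the paced group stood apart from the rest on the first principal component (45.3, against -22.3 to 19.2 in the other arrays), and both control arrays numbered 1 did so on the second (27.2 and 24.3, against -16.3 to 7.74). Cardiomyocyte markers were high in every array (mean of 6 genes, 11.88 to 12.06). The fibroblast list (7 genes) averaged 7.30 and 7.39 in both control arrays numbered 1 and 7.67 to 8.24 in the others, and the red cell list (3 genes) was low, at 2.82 to 3.29; RMA values have no true zero. Several values below are also given without these arrays.

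Among the 55 members, 47 passed the filter on dim probe sets (mean above 2.998 over the 12 arrays) and 34 lay above the median of all probe set means, 4.36. The signal of a probe set also depends on its probes, so levels of different genes are placed against that median and not against each other. PDE3A, PDE4D, PDE4B, PRKAR2A, the PACAP receptor ADCYAP1R1 and PRKAR1A had means from 8.92 to 10.32. The 8 members that were not tested were ADCY10, ADCYAP1, AKAP5, AKAP14, PDE6C, PDE8B, PDE11A and PRKG2, with means of 1.62 to 2.84. The median SD within groups was 0.21 over the tested members and 0.20 over all tested probe sets. It was smallest for AKAP8L (0.052) and PRKAR2A (0.061) and largest for PRKG1 (0.44) and PDE7A (0.50).

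No member passed an adjusted p of 0.05 in any of the 7 comparisons (limma, Benjamini-Hochberg over 20669 probe sets), where few probe sets of any kind did so. For pacing, 0 of 47 members were called in the free wall (0.00484% of all tested probe sets were), 0 in the septum (0.00968%), 0 with the regions averaged (0.00484%) and 0 for the difference between the regions' responses (0%). For septum against free wall, 0 of 47 were called in control pigs (0%), in paced pigs (0%) and over both treatments (0.00968%). The member nearest the threshold was ABCC4. What follows therefore gives levels and differences, with intervals, of genes whose change was not established.

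At an unadjusted p under 0.05, pacing separated 6 of 47 members in the free wall (12.8%, against 4.56% of all tested probe sets), of which 4 were higher and 2 lower. The same count was 3 in the septum (6.38%, against 4.66%), all higher, and 7 with the regions averaged (14.9%, against 5.55%), 6 higher and 1 lower. The free wall count was 1 without both control arrays numbered 1, which leaves fewer arrays, and 3 after each array was centred on its median. Of all 20669 tested probe sets, 753 and 896 were under that p in these settings, against 942 with all arrays. The free wall count was also 1 without free wall control replicate 1 (788 of all probe sets), 2 without free wall control replicate 2 (721) and 3 without free wall paced replicate 1 (1197). The septum count was 1 without septum control replicate 1 (679 of all probe sets), septum control replicate 3 (854) or septum paced replicate 3 (1315). It was 5 without free wall paced replicate 2 (1417 of all probe sets, against 963 with all arrays). Members spread to both sides of 0: 26 were above and 21 below in the free wall (median difference 0.05, against 0.00 over all tested probe sets), 27 and 20 in the septum (median 0.01, against 0.00), and 30 and 17 with the regions averaged (median 0.04, against 0.00). Paced and control arrays did not overlap for 7 members in the free wall (14.9%, against 8.16% of all tested probe sets) and 10 in the septum (21.3%, against 10.5%). After same-numbered arrays were averaged, 8 did not overlap (17.02%, against 10.4%), a count that depends on which arrays are joined. In bulk tissue, fewer cells of a type and less RNA per cell cannot be told apart.

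Between the regions, 1 of 47 members was under an unadjusted p of 0.05 in control pigs (2.13%, against 3.67% of all tested probe sets), 5 in paced pigs (10.6%, against 6.73%) and 6 over both treatments (12.8%, against 7.83%). Leaving out 1 array at a time gave 0 to 3 in control pigs, with 0 without replicate 2 of either region, 2 without free wall control replicate 1 or free wall paced replicate 2 and 3 without septum control replicate 3. In paced pigs it gave 3 to 7, with 3 without free wall paced replicate 1 or septum paced replicate 3. Over all 20669 tested probe sets, the control count ran from 505 (without septum control replicate 3) to 1208 (without free wall paced replicate 2), against 758 with all arrays. The paced count ran from 913 (without septum paced replicate 1) to 2137 (without free wall paced replicate 2), against 1391 with all arrays. With the number as a block, 3 of 47 members were under that p in control pigs (6.38%, against 3.75% of all tested probe sets), namely PDE4B, ADCY2 and ADCYAP1R1, and none was called. Groups that did not overlap were found for 3 of 47 members in control pigs (6.38%, against 13.1% of all tested probe sets) and for 8 in paced pigs (17.02%, against 9.91%), 4 in each direction; over both treatments there was none (0 of 47, against 0.668%). Both comparisons within the septum or within the free wall share arrays with the comparisons between regions, so the values below are set side by side and are not independent of each other.

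**Figure D1:**
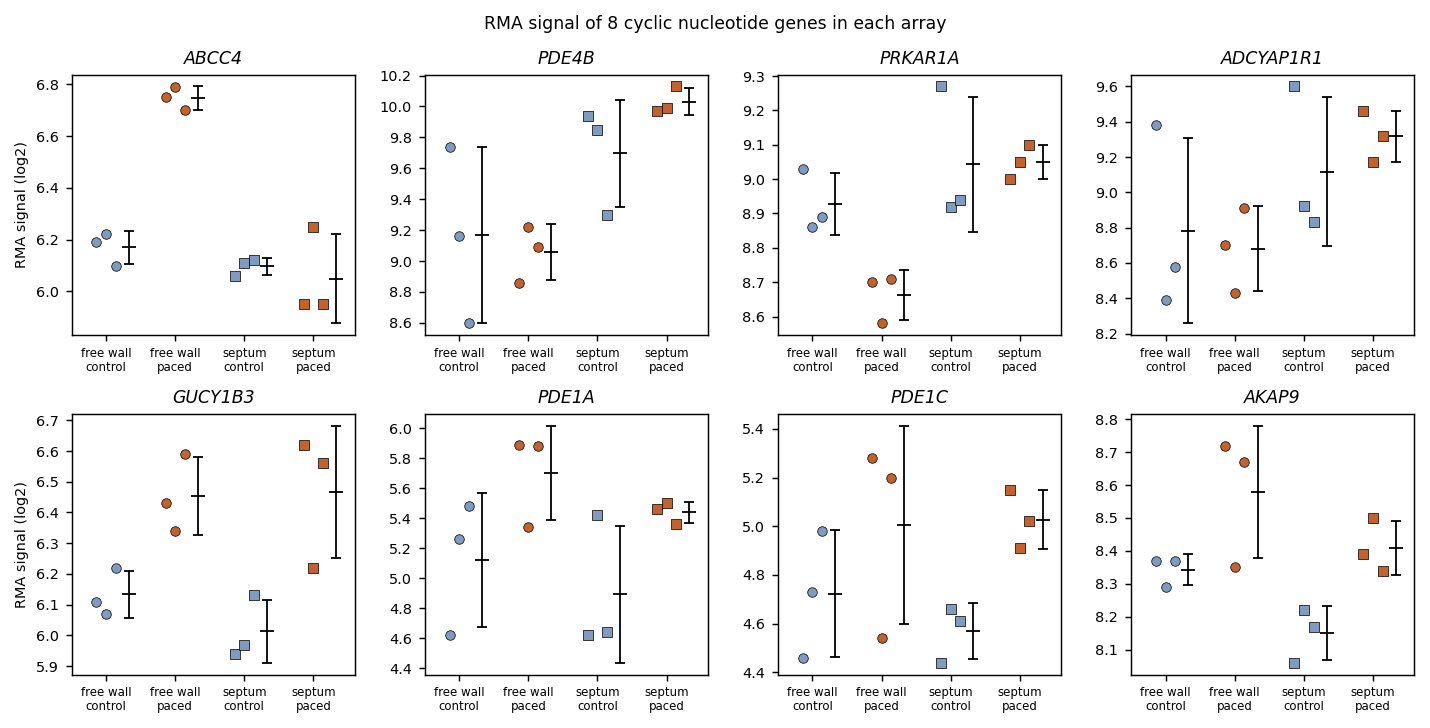
RMA signal (log2) of 8 members in each of the 12 arrays; circles are free wall, squares septum, blue control and orange paced, and the bars beside them give the mean and SD of 3 arrays. The 3 paced free wall arrays of ABCC4 sit between 6.70 and 6.79, above all other arrays, and the 3 paced septum arrays of PDE4B sit between 9.97 and 10.13.

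Among the inputs to cAMP, the adenylyl cyclases were spread on both sides of 0, with 5 of 8 tested genes above and 3 below for pacing with the regions averaged (-0.27 to 0.14, median 0.015). ADCY6, a main cardiac cyclase that calcium inhibits, had signals of 8.46, 8.35 and 8.15 in control free wall, 8.38, 8.74 and 8.32 in paced free wall, 8.72, 8.67 and 8.37 in control septum and 8.75, 8.69 and 8.65 in paced septum. The free wall and septum arrays overlapped as groups, while within the control numbers septum exceeded free wall by 0.26, 0.32 and 0.22. The pacing difference was 0.14 (SE 0.116, 95% interval -0.13 to 0.40). Septum was 0.24 above free wall over both treatments (SE 0.101, limma unadjusted p = 0.0352, adjusted p = 0.607). In paced pigs that difference was 0.22, or 0.35 without the second paced free wall array. ADCY5, the other main cardiac cyclase, ranged from 5.72 to 6.73 over the 12 arrays, and its pacing difference was -0.04 (SE 0.206, interval -0.52 to 0.44). ADCY9 ranged from 4.61 to 4.95, with a pacing difference of 0.03 (SE 0.085).

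ADCY2, a cyclase that calcium does not inhibit, lay below the array median, with signals of 4.10, 4.18 and 4.06 in control free wall and 3.90, 3.55 and 3.96 in paced free wall. In the septum, control arrays gave 3.80, 3.78 and 3.79 and paced arrays 3.76, 3.42 and 3.49. Every paced array was thus below every control array of its region. The difference with the regions averaged was -0.27 (SE 0.108, interval -0.52 to -0.02), which did not pass (limma adjusted p = 0.888), and control septum also lay below control free wall, by -0.32 (adjusted p = 0.997; with the number as a block, unadjusted p = 0.0285, adjusted p = 0.988). Without the second paced free wall array, the free wall difference was -0.18 in place of -0.31, and without both paced arrays numbered 2 the averaged difference was -0.17. The region difference in paced pigs, -0.25, was -0.37 without the second paced free wall array. Another probe set of ADCY2 was too dim to test (mean 1.76), and its paced and control arrays overlapped in both regions. ADCY1, ADCY3, ADCY4 and ADCY8 had pacing differences of -0.05 to 0.11 with the regions averaged.

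ADCYAP1R1, the receptor through which the neuropeptide PACAP raises cAMP, gave a signal far above the array median, while the probe set of the peptide gene itself, ADCYAP1, was too dim to test. In paced pigs its signals were 8.70, 8.43 and 8.91 in free wall and 9.46, 9.17 and 9.32 in septum, which did not overlap. Control free wall gave 9.38, 8.39 and 8.58 and control septum 9.60, 8.92 and 8.83, in which the highest value of each region was the array numbered 1. Within the control numbers septum exceeded free wall by 0.22, 0.53 and 0.25 (limma with the number as a block, unadjusted p = 0.0339, adjusted p = 0.988). Septum was above free wall by 0.64 in paced pigs (SE 0.261, 1.56-fold, limma adjusted p = 0.714) and by 0.49 over both treatments (SE 0.185, adjusted p = 0.560). Without the second paced free wall array the difference in paced pigs was 0.51. The pacing difference with the regions averaged was 0.05 and became 0.32 without both control arrays numbered 1.

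Soluble guanylyl cyclase, the nitric oxide receptor, is a pair of an alpha and a beta chain, listed on the array under their older symbols GUCY1A3 and GUCY1B3. The beta chain had the lowest p for pacing with the regions averaged among the members. GUCY1B3 gave 6.11, 6.07 and 6.22 in control free wall and 6.43, 6.34 and 6.59 in paced free wall, and 5.94, 5.97 and 6.13 in control septum and 6.62, 6.22 and 6.56 in paced septum. In both regions every paced array was above every control array. The differences were 0.32 in free wall (SE 0.129), 0.45 in septum (SE 0.129, 1.37-fold, limma unadjusted p = 0.00434, adjusted p = 0.953) and 0.39 with the regions averaged (SE 0.108, 1.31-fold, interval 0.14 to 0.64, adjusted p = 0.818). Over all alternatives the averaged difference lay between 0.33 and 0.48, with adjusted p-values of 0.303 to 0.999.

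The alpha chain, without which the beta chain is not an active cyclase, was more variable. GUCY1A3 gave 5.07, 5.15 and 5.40 in control free wall, 5.23, 4.80 and 5.73 in paced free wall, 4.67, 5.09 and 5.19 in control septum and 5.64, 5.13 and 5.21 in paced septum. Paced and control arrays overlapped in both regions, and the averaged difference was 0.20 (SE 0.166, interval -0.19 to 0.58), an interval that holds the value of the beta chain. It was 0.083 without both control arrays numbered 1 and 0.36 without both paced arrays numbered 2. GUCY2C, the receptor for guanylin peptides known from the gut, was close to the filter at a mean of 3.06 and ranged from 2.25 to 3.67, both ends being paced free wall arrays.

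PKA is built of regulatory and catalytic subunits. The catalytic subunit PRKACA gave 7.43 to 7.79 in control free wall, 7.69 to 7.76 in paced free wall, 7.69 to 7.82 in control septum and 7.74 to 8.02 in paced septum. Its pacing difference with the regions averaged was 0.11 (SE 0.088, interval -0.10 to 0.31). PRKAR2A, the type II regulatory subunit that AKAPs bind most tightly, was among the steadiest members, from 9.27 to 9.54 over the 12 arrays, with a pacing difference of 0.04 (SE 0.085, interval -0.16 to 0.23).

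PRKAR1A, the type I regulatory subunit, differed between the regions of paced pigs. Its signals were 8.70, 8.58 and 8.71 in paced free wall and 9.0, 9.05 and 9.10 in paced septum, against 9.03, 8.86 and 8.89 in control free wall and 9.27, 8.92 and 8.94 in control septum. The paced free wall arrays were the 3 lowest of the 12. Septum exceeded free wall by 0.39 in paced pigs (SE 0.117, 1.31-fold, interval 0.13 to 0.64, limma adjusted p = 0.561) and by 0.12 in control pigs (SE 0.117, interval -0.14 to 0.37). The pacing difference was -0.26 in free wall (SE 0.117, unadjusted p = 0.0448, adjusted p = 0.998) and 0.01 in septum. The difference between those 2 responses was 0.27 (SE 0.166, interval -0.09 to 0.63), so unequal responses of the regions were not shown.

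PRKAR2B, the other type II subunit, and PRKG1, the kinase that carries the cGMP signal, were both lowest in arrays that stood apart. PRKG1 gave 6.10, 7.17 and 7.01 in control free wall, 7.27, 6.35 and 7.24 in paced free wall, 6.15, 6.68 and 6.72 in control septum and 7.20, 6.69 and 6.91 in paced septum. The 3 lowest arrays were both control arrays numbered 1 and the second paced free wall array. The pacing difference with the regions averaged was 0.31 (SE 0.253, interval -0.28 to 0.89) and 0.05 without both control arrays numbered 1, or 0.52 without both paced arrays numbered 2. The smooth muscle and pericyte list (8 genes) was lowest in those control arrays, with means of 6.69 and 6.63 against 6.91 to 7.19 elsewhere. The fibroblast list was lowest there too. In the second paced free wall array these lists averaged 6.95 and 8.08, within the range of the remaining arrays. Their part in the values of PRKG1 was not tested.

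**Figure D2:**
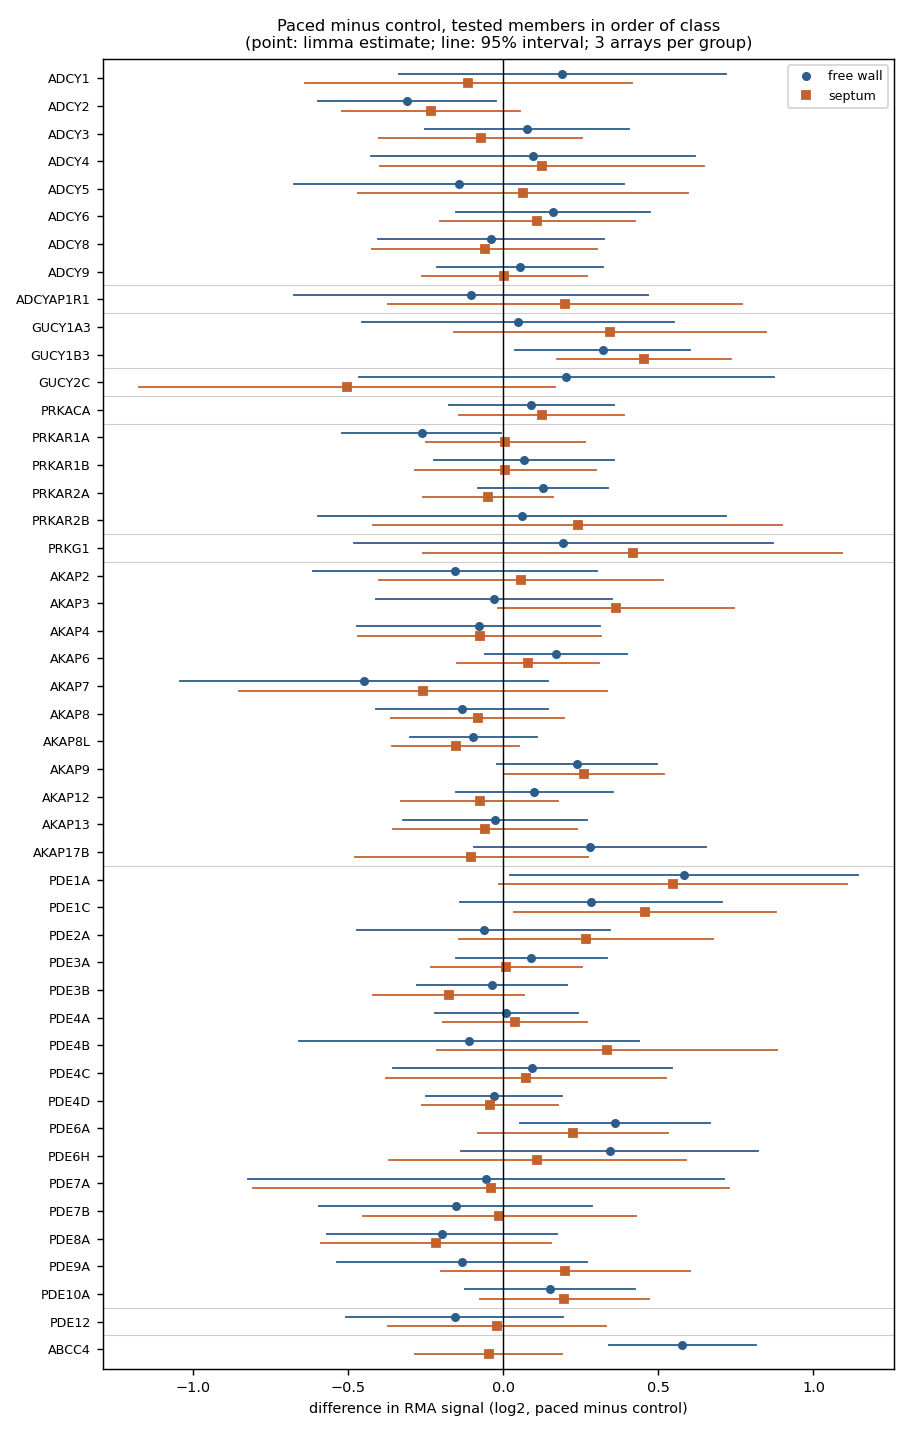
Pacing difference (log2, paced minus control) of the 47 tested members in order of class, in free wall (blue circles) and septum (orange squares); points are limma estimates and lines 95% intervals from 3 arrays per group, not adjusted for the number of genes. ABCC4 has the interval farthest from 0 in the free wall (0.34 to 0.81), and in the septum its interval spans 0.

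Of the anchoring proteins, 5 of 11 tested genes were above 0 and 6 below for pacing with the regions averaged (median -0.04). AKAP9, the large scaffold that holds PKA at the channel of the slow delayed potassium current, gave 8.37, 8.29 and 8.37 in control free wall, 8.72, 8.35 and 8.67 in paced free wall, 8.06, 8.22 and 8.17 in control septum and 8.39, 8.5 and 8.34 in paced septum. The septum groups did not overlap, and in the free wall only the second paced array fell within the control range. The averaged difference was 0.25 (SE 0.084, 1.19-fold, limma unadjusted p = 0.0184, adjusted p = 0.867). AKAP6, which gathers PKA with a phosphodiesterase at the nuclear envelope of cardiomyocytes, gave 8.67 to 8.89 in control free wall and 8.90 to 8.99 in paced free wall, and its averaged difference was 0.13 (SE 0.086, interval -0.07 to 0.32).

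AKAP12, a scaffold that binds PKA and beta-adrenergic receptors at the cell membrane, was lower in septum than in free wall of paced pigs. The signals were 5.88, 5.81 and 5.79 in free wall and 5.41, 5.74 and 5.55 in septum, a difference of -0.26 (SE 0.116, limma adjusted p = 0.736). Control pigs gave 5.65, 5.82 and 5.71 in free wall and 5.52, 5.76 and 5.65 in septum, which overlapped. AKAP7, which brings PKA to phospholamban, had its highest signals in both control arrays numbered 1 (5.80 and 5.49, against 4.40 to 4.94 in the others). Its averaged pacing difference was -0.36 with those arrays and -0.07 without them. AKAP8L had the smallest SD within groups of the members tested, and its 3 control septum arrays (6.80, 6.80 and 6.71) lay above its 3 paced ones (6.62, 6.62 and 6.61), a difference of -0.15 (SE 0.094, unadjusted p = 0.128).

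Among the 16 tested phosphodiesterases, 11 were above 0 and 5 below for pacing with the regions averaged (-0.21 to 0.57, median 0.07). The calcium-calmodulin activated family PDE1, which hydrolyses both nucleotides, held the member with the largest averaged difference. PDE1A gave 4.62, 5.26 and 5.48 in control free wall, 5.89, 5.34 and 5.88 in paced free wall, 4.62, 5.42 and 4.64 in control septum and 5.46, 5.5 and 5.36 in paced septum. Paced and control arrays overlapped in each region and did not once same-numbered arrays of the regions were averaged. That separation depends on which arrays are joined, and the numbers are not tied to pigs. The averaged difference was 0.57 (SE 0.178, 1.48-fold, interval 0.15 to 0.98, limma unadjusted p = 0.0135, adjusted p = 0.867). It was 0.37 without both control arrays numbered 1, and the free wall difference of 0.58 became 0.33 without them and 0.77 without the second paced free wall array. Both probe sets of PDE1A carried identical values in all 12 arrays and are 1 measurement.

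PDE1C, of the same family, gave 4.46, 4.73 and 4.98 in control free wall and 5.28, 4.54 and 5.20 in paced free wall, and 4.44, 4.66 and 4.61 in control septum and 5.15, 4.91 and 5.02 in paced septum. The septum groups did not overlap. Differences were 0.46 in septum (SE 0.193, limma unadjusted p = 0.0361, adjusted p = 0.992) and 0.37 with the regions averaged (SE 0.151, adjusted p = 0.888). The free wall difference of 0.28 was 0.52 without the second paced free wall array and 0.15 without both control arrays numbered 1. For pacing with the regions averaged, 7 of 8 smooth muscle and pericyte markers (median 0.18) and 7 of 7 fibroblast markers (median 0.185) were also above 0, none of them called. Without both control arrays numbered 1 the counts were 7 of 8 (median 0.06) and 3 of 7 (median -0.06). Without both paced arrays numbered 2 they were 5 of 8 (median 0.26) and 6 of 7 (median 0.19). Their part in the values of PDE1A, PDE1C and GUCY1B3 was not tested.

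PDE2A, which cGMP activates to hydrolyse cAMP, gave 6.05, 5.70 and 5.86 in paced free wall and 6.57, 6.06 and 6.06 in paced septum, a region difference of 0.36 (SE 0.187, interval -0.05 to 0.77). PDE3A, the cAMP-hydrolysing enzyme that cGMP inhibits and that the drug milrinone targets, ranged from 10.15 to 10.49 over the 12 arrays. Its pacing difference was 0.05 with the regions averaged (SE 0.089, interval -0.16 to 0.26), so its interval leaves out a change of the size seen for PDE1A. PDE3B gave a pacing difference of -0.11.

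PDE4 enzymes hydrolyse cAMP alone, and the members of the family differed in how steady they were. PDE4D, which is bound near the ryanodine receptor and phospholamban, ranged from 9.66 to 9.86, with a pacing difference of -0.04 (SE 0.083, interval -0.23 to 0.16) and a region difference of 0.06 over both treatments (SE 0.071). PDE4B, which acts at the L-type calcium channel, had the largest region difference of all members. It gave 8.86, 9.22 and 9.09 in paced free wall and 9.97, 9.99 and 10.13 in paced septum, with no overlap. Control pigs gave 9.74, 9.16 and 8.60 in free wall and 9.94, 9.85 and 9.30 in septum, a wider spread in which the regions overlapped as groups. Within the control numbers septum exceeded free wall by 0.20, 0.69 and 0.70.

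Septum exceeded free wall for PDE4B by 0.97 in paced pigs (SE 0.251, 1.96-fold, interval 0.43 to 1.52, limma unadjusted p = 0.0023, adjusted p = 0.454). The difference was 0.53 in control pigs (SE 0.251, interval -0.02 to 1.08, adjusted p = 0.997; with the number as a block, SE 0.144, unadjusted p = 0.00681, adjusted p = 0.988) and 0.75 over both treatments (SE 0.177, 1.68-fold, interval 0.36 to 1.14, adjusted p = 0.299). The pacing responses of the regions, -0.11 in free wall and 0.33 in septum, differed by 0.44 (SE 0.355, interval -0.33 to 1.22; 0.28 without both control arrays numbered 1), so the data do not show that pacing altered the region difference. Without the second paced free wall array the difference in paced pigs was 1.06. In paced pigs, 6 of 6 endothelial markers (median 0.17) and 7 of 7 macrophage and monocyte markers (median 0.24) were above 0 in septum, none of them called. These were 4 of 6 (median 0.13) and 7 of 7 (median 0.10) without the second paced free wall array. In control pigs, 4 of 6 endothelial markers (median 0.12) but 1 of 7 macrophage and monocyte markers (median -0.17) were above 0 in septum. Among the other lists in paced pigs, 3 of 6 cardiomyocyte, 3 of 7 fibroblast, 2 of 5 lymphocyte and 1 of 3 conduction markers were above 0 in septum. The part of any list in the PDE4B values was not tested. PDE4A and PDE4C had region differences of 0.10 and -0.06 over both treatments.

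Of the remaining families, PDE8A, a cAMP enzyme of high affinity, had a pacing difference of -0.21 with the regions averaged (SE 0.141, interval -0.53 to 0.12), or -0.06 without both control arrays numbered 1, with control signals of 7.24 to 7.92 and paced signals of 7.24 to 7.60. PDE9A, which is specific for cGMP, gave 0.03 (SE 0.146, interval -0.31 to 0.37). PDE6A, known as a subunit of the enzyme of rod photoreceptors, was dim: 3.25, 3.26 and 3.36 in control free wall, 3.70, 3.80 and 3.45 in paced free wall, 3.34, 3.22 and 3.32 in control septum and 3.65, 3.22 and 3.68 in paced septum. Its averaged difference was 0.29 (SE 0.088, limma unadjusted p = 0.011, adjusted p = 0.867), from signals near the filter. PDE7A held the widest spread, from 6.86 to 8.69, both ends in paced free wall. PDE12 had a pacing difference of -0.09 (SE 0.117).

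ABCC4 was the member that stood out most, and it did so in 1 group. It gave 6.19, 6.22 and 6.10 in control free wall, 6.75, 6.79 and 6.70 in paced free wall, 6.06, 6.11 and 6.12 in control septum and 5.95, 6.25 and 5.95 in paced septum. The 3 paced free wall arrays lay above all others, which ranged from 5.95 to 6.25. In the free wall, paced arrays were 0.58 above control (SE 0.108, 1.49-fold, interval 0.34 to 0.81, limma unadjusted p = 0.000198, adjusted p = 0.455), the 9th smallest p of 20669. In the septum the difference was -0.05 (SE 0.108, interval -0.28 to 0.19).

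The difference between those responses was -0.62 (SE 0.153, interval -0.96 to -0.29, limma unadjusted p = 0.00164, adjusted p = 0.999), and ABCC4 was the 1 member of 47 under an unadjusted p of 0.05 in that comparison (2.13%, against 2.75% of all tested probe sets). Within paced pigs the septum was 0.70 below the free wall (SE 0.108, 1.62-fold, interval -0.93 to -0.46, unadjusted p = 3.67e-05, adjusted p = 0.142), the 5th smallest p of all tested. Without the second paced septum array that difference was -0.80 and passed, at an adjusted p of 0.047; over all alternatives it lay between -0.80 and -0.65, with adjusted p-values of 0.047 to 0.751. Control pigs gave -0.07 (interval -0.31 to 0.16). Without the second paced free wall array, which stood apart, the free wall difference was 0.56 and the region difference in paced pigs -0.68, close to the values with it.

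Of the 11 marker lists, the macrophage and monocyte list alone did not overlap between control and paced free wall, where ABCC4 did not either. Among all tested probe sets, 8.16% did not overlap in that comparison. Of the 7 genes of the list, 3 did not, all lower with pacing. The list was picked out from the 11 for that separation. Its mean over 7 genes was 5.48 to 5.63 in control free wall and 5.01 to 5.38 in paced free wall, with 6 of 7 genes below 0 (median -0.35; 7 of 7, median -0.24, without the second paced free wall array), against 5.16 to 5.64 in control septum and 5.35 to 5.47 in paced septum. In the free wall the list was lower and ABCC4 higher with pacing. In control septum, where the list ranged from 5.16 to 5.64, ABCC4 gave 6.06 to 6.12. Smooth muscle and pericyte markers averaged 6.69 to 6.96 in control and 6.95 to 7.10 in paced free wall. The part of either list in the ABCC4 values was not tested.

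**Figure D3:**
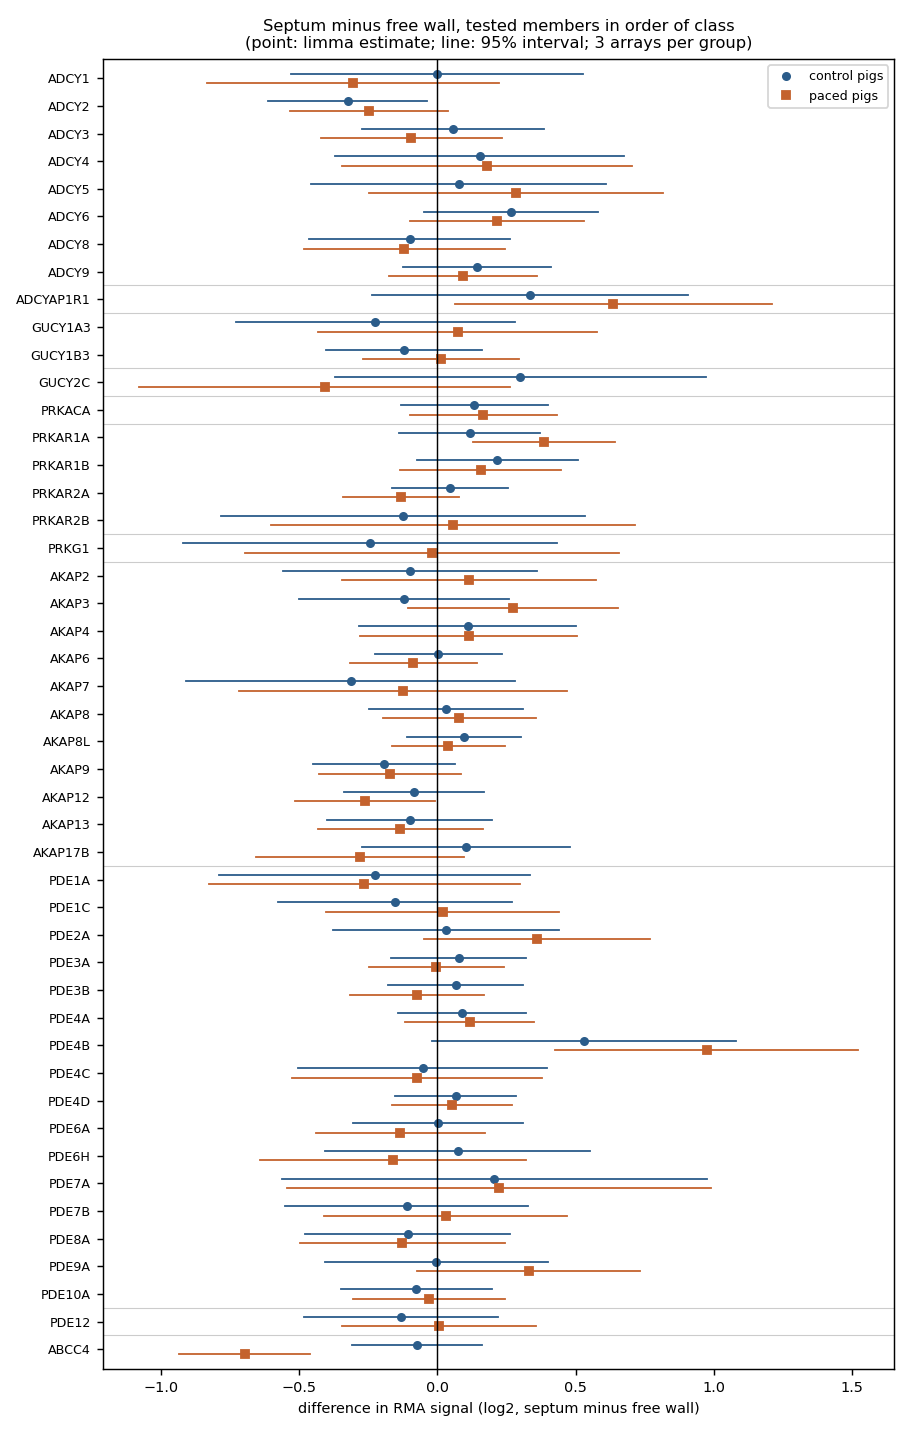
Region difference (log2, septum minus free wall) of the 47 tested members in order of class, in control pigs (blue circles) and paced pigs (orange squares); points are limma estimates and lines 95% intervals from 3 arrays per group, not adjusted for the number of genes. In paced pigs PDE4B is at 0.97 and ABCC4 at -0.70; in control pigs the same genes are at 0.53 and -0.07.

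**Figure D4:**
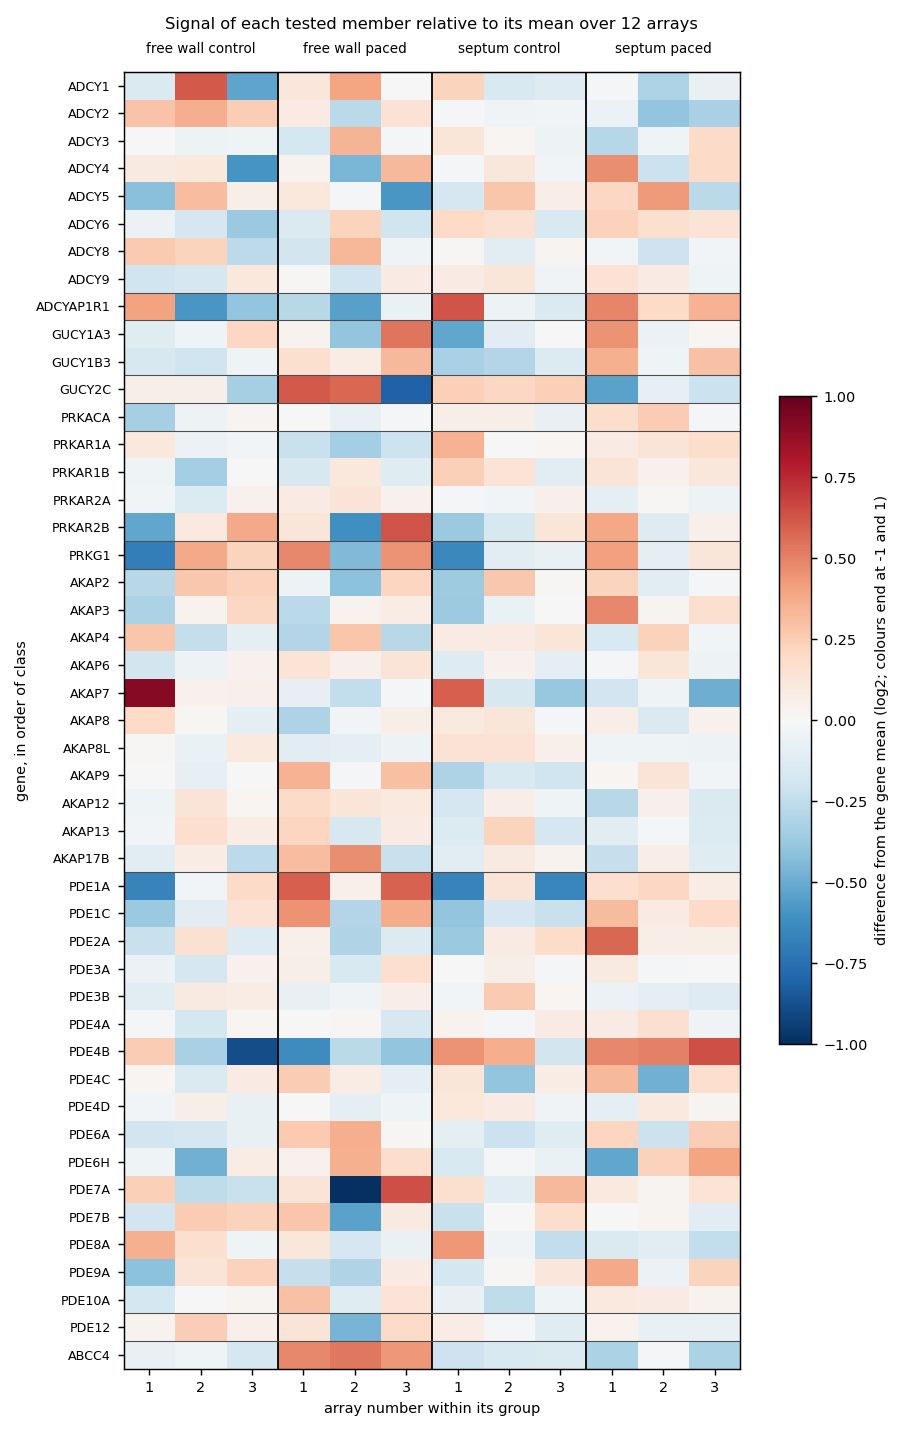
Signal of each tested member in each of the 12 arrays, as the difference (log2) from that gene's own mean; red is above the mean and blue below, rows are ordered by class and columns by group and array number. PRKG1, PRKAR2B and PDE1A are blue in both control arrays numbered 1, AKAP7 is red there, and ABCC4 is red in the 3 paced free wall arrays.

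Other genes of the pathway were followed through lists of 80 names, of which 50 were on the array and 47 were tested. None was called in any comparison. For pacing with the regions averaged, 25 were above 0 and 22 below (median 0.01), where the members had 30 above and 17 below (median 0.04). Upstream receptors and G proteins were 9 above and 6 below of 15 (median 0.01), with the beta-1 adrenergic receptor ADRB1 at -0.06 (SE 0.122) and the stimulatory G protein GNAS at 0.01 (SE 0.085). GRK5, a kinase that desensitises adrenergic receptors, gave 7.09, 7.09 and 7.23 in control free wall, 7.46, 7.35 and 7.33 in paced free wall, 7.24, 7.02 and 7.16 in control septum and 7.34, 7.57 and 7.25 in paced septum. Its paced arrays were above the control arrays in both regions, by 0.245 on average (SE 0.091, 1.19-fold, limma adjusted p = 0.867).

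The list of inputs to cGMP, which includes NPR3, was mostly below 0 for pacing, 6 of 7 genes with the regions averaged (median -0.10). By region, 6 of 7 were below in free wall (median -0.22) and 4 of 7 in septum (median -0.09). With the regions averaged, the median was -0.17 without both control arrays numbered 1. Without both paced arrays numbered 2, the averaged count was 5 of 7 (median -0.06). NPR3, the receptor that clears natriuretic peptides without making cGMP, gave 8.67, 8.58 and 8.67 in control free wall, 8.39, 7.58 and 8.35 in paced free wall, 8.98, 8.10 and 8.53 in control septum and 7.70, 8.06 and 7.93 in paced septum. Paced arrays were below control arrays in both regions. The lowest value, 7.58, came from the second paced free wall array, which stood apart, and NPR3 is not given without it. The averaged difference was -0.59 (SE 0.144, 1.5-fold, limma unadjusted p = 0.00376, adjusted p = 0.700), of a size like that of PDE1A and of the opposite sign. The receptors that do make cGMP from natriuretic peptides, NPR1 and NPR2, were at -0.10 (SE 0.171) and -0.03 (SE 0.106), and endothelial nitric oxide synthase NOS3 at -0.01 (SE 0.145).

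PKA substrates and their phosphatases were 4 above and 6 below of 10 for pacing (median -0.01), and phospholamban, PLN, was at 0.04 (SE 0.082). Between the regions, the channel subunit CACNA1C was 0.295 higher in septum over both treatments (SE 0.085, limma unadjusted p = 0.00465, adjusted p = 0.404), and the myofilament protein MYBPC3 was 0.275 higher (SE 0.084, adjusted p = 0.447). The 10 genes of the list together had a median region difference of 0.00. PKA inhibitors and other cAMP effectors were 6 above and 1 below of 7 for pacing (median 0.03), and transcription factors of the pathway 2 above and 1 below of 3. Known targets of the cAMP-responsive factor CREB were 3 above and 2 below of 5 for pacing with the regions averaged (median 0.07). In septum against free wall they were 4 above and 1 below in paced pigs (median 0.32) and 5 above of 5 in control pigs (median 0.18), none of them called. Without the second paced free wall array, the count in paced pigs was 3 of 5 and the median 0.0033.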

How the data were processed

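Trizol-extracted total RNA was labelled with biotin for Affymetrix arrays, per the labels. The values used are the deposited log2 signals. The submitters' processing notes name RMA and Affymetrix Expression Console 1.4; RMA corrects background, equalises quantiles between arrays and summarises probes. For the array, build and annotation are not given in the sources used. GEO's platform annotation gave 13323 of 27558 probe sets 1 symbol, 357 several and 13878 none; no member probe set had several. The lowest 25% of probe sets by mean were left out, and 20669 were tested.

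limma 3.58.1 (R 4.3.3) fitted 1 mean per group over all 12 arrays (8 residual and 3.68 prior degrees of freedom). For pacing with regions averaged, same-numbered free wall and septum arrays of a treatment were averaged first (4 and 3.82). Tests were two-sided with Benjamini-Hochberg adjustment over all tested probe sets, and a call is an adjusted p under 0.05. Intervals are 95% and unadjusted. Planted changes in simulated data served to test the code. Without a count depth, it is the number of arrays that limits precision. Same-numbered arrays deviated together in control pigs (correlations 0.318, 0.253 and 0.245) and not in paced pigs (0.089, -0.174 and -0.181). By the rule that every pair exceed 0.1, differences within numbers are listed for control regions alone. Deviations are taken from group means, so the correlations of a treatment are not independent of each other. Both control arrays numbered 1 stood apart, so the correlations cannot show that same-numbered arrays share a pig. Values with the number as a block assume such a pairing. With regions averaged, the differences do not depend on which arrays are joined, but their SEs, p-values and overlaps do.

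Members and lists were chosen with earlier results of these data known. Named with array values were members at an unadjusted p under 0.01 whose groups do not overlap (up to 3 per direction and comparison; by p alone for the difference of effects), known main cardiac isoforms, and the brightest member of each class. ADCY2, PDE1C, PDE6A, AKAP7, AKAP8L, AKAP9, PDE7A and GRK5 fall outside that rule and were named after their values were seen, as were CACNA1C, MYBPC3 and further genes given by a difference alone. Alternatives were other filters, variance trend, array weights, centring, probe set means, a replicate block, a fit of only the arrays compared and leaving out arrays.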

Additional observations from a re-analysis of the deposited data

How the results depend on the processing

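Of 65 gene and comparison results followed, 52 kept their sign under all alternatives run and 13 changed it under at least 1, among 1140 values of which 1113 kept the sign. The count of members called was 0 in all 7 comparisons under the alternatives run, except that leaving out single arrays gave 0 to 1 for septum against free wall in paced pigs (ABCC4, -0.80, adjusted p = 0.047, without septum paced replicate 2). With the treatment and number as a replicate block, that ABCC4 value was -0.70 (adjusted p = 0.381) and PDE4B was 0.97 (adjusted p = 0.324), and the block changed no call of a member. The cause of the ABCC4 call was not tested. The results that changed sign had differences of -0.15 to 0.11 with all arrays. For pacing with the regions averaged, leaving out 1 number at a time gave -0.20 to 0.16 for ADCY5, -0.0042 to 0.063 for ADCY9, -0.10 to 0.32 for ADCYAP1R1, -0.038 to 0.064 for AKAP12, -0.31 to 0.0675 for GUCY2C, -0.15 to 0.026 for PDE12, -0.028 to 0.19 for PDE2A, -0.13 to 0.32 for PDE4B and -0.11 to 0.13 for PDE9A. For septum against free wall over both treatments, leaving out 1 array at a time gave -0.19 to 0.044 for GUCY1A3, -0.092 to 0.0083 for GUCY1B3, -0.29 to 0.068 for GUCY2C and -0.0075 to 0.0725 for PDE3A. Array weights gave -0.021 for AKAP12 (pacing averaged) and 0.0008 for GUCY2C (regions). Leaving out both control arrays numbered 1, chosen after seeing the data, gave -0.038 for AKAP12, -0.02 for PDE2A and -0.11 for PDE9A. Centring shifted the array medians by under 0.03 between groups. Signals near the filter, such as PDE6A and GUCY2C, lie close to background, which limits what their differences can show.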
